A study of Mus musculus with 6 samples.

Results

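The enzymes that write and erase N6-methyladenosine (m6A) were measured as mRNA in the corpus callosum of newborn mice. The 10 genes were chosen by name, 8 writers (Mettl3, Mettl14, Wtap, Virma, Zc3h13, Rbm15, Rbm15b and Cbll1) and 2 erasers (Fto and Alkbh5), out of 24411 genes and with 14 of the 35034 listed transcripts. Virma is listed under its older symbol 1110037F02Rik, which the RefSeq gene table pairs with it. The study asks how m6A bears on the RNA that neurons send from the cell body into axons. The callosal tissue came from cryostat sections 60 µm thick through brains of B6 mice on postnatal day 4, was cut out by hand, and its polyadenylated RNA was sequenced. There were 3 libraries from a conditional knockout of Mettl14 (cKO) and 3 WT libraries. The sources used here do not give the promoter or cell type that drives the deletion, the deleted exons or the number of animals per library. The spread between libraries that enters each p-value may therefore be technical.

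m6A is a methyl mark placed on adenosines of nascent mRNA in the nucleus. It is written by a complex in which METTL3 carries the active site and METTL14 holds the RNA and keeps METTL3 stable. WTAP, VIRMA, ZC3H13 and CBLL1 (also called HAKAI) form the regulatory part that places this pair on its targets, and RBM15 and RBM15B are RNA-binding adaptors. FTO and ALKBH5 are iron-dependent oxygenases that remove methyl groups from adenosine. In the developing cortex, loss of METTL14 is known to prolong the cell cycle of radial glia.

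The 4 enzymes differ at the codons of their active sites, shown here to identify what each transcript encodes. The coding stretches were read by a script from the GENCODE M21 transcripts on GRCm38, the same assembly as mm10, from the transcript matched to each deposited RefSeq accession. Capitals mark the 4 codons of the catalytic motif in Mettl3, the 4 codons at the same place in Mettl14, which binds no methyl donor, and the 3 codons that hold the first iron-binding histidine and aspartate in the erasers.
Mettl3: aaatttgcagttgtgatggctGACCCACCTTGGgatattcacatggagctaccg
Mettl14: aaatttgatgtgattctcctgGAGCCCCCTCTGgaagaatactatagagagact
Fto: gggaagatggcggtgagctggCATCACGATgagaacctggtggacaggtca
Alkbh5: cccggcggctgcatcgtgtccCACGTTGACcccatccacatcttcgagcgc
The Mettl3 stretch lies at chr14:52297560-52297613 on the minus strand, in exon 6 of 11, with codons 395 to 398 in capitals. The Mettl14 stretch lies at chr3:123374784-123374837 on the minus strand, in exon 7 of 11, with codons 192 to 195 in capitals. The Fto stretch lies at chr8:91409760-91409810 on the plus strand, in exon 3 of 9, with codons 228 to 230 in capitals. The Alkbh5 stretch lies at chr11:60539014-60539064 on the plus strand, in exon 1 of 4, with codons 205 to 207 in capitals. Read side by side without gaps, the stretches of Mettl3 and Mettl14 match at 24 of 54 bases, and at 8 of the 12 bases in capitals.

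Depth was low, with 670462 to 1208382 expected counts (fragments that RSEM assigns to a transcript by estimate) per cKO library and 843647 to 1268430 per WT library. Levels are given as CPM, counts scaled to a common depth with TMM factors, on which 1 count equalled 1 to 1.41 CPM in cKO libraries and 0.803 to 1.16 CPM in WT libraries. Markers of several cell types also differed between the genotypes. The 10 markers of excitatory cortical neurons summed to 5820 to 6650 CPM in cKO and 440 to 982 CPM in WT. Neurod2 was at 0 counts in WT and passed the filter on low counts through cKO alone, so higher was the only call open to it. Of 9 tested markers 1 was called higher, Neurod2 itself. Of these 9, 7 had a positive log2 fold change and 2 a negative one, Slc17a7 (−0.6) and Cux1 (−0.139). Neurod2, Neurod6 and Bhlhe22 were the largest terms of the sum in every cKO library, at 2650, 1230 and 1040 CPM in cKO replicate 1. In WT replicates 1 to 3, Neurod6 had 0, 190 and 1 counts and Bhlhe22 had 0, 0 and 40. Genes with few exons were often at 0 or 1 count in some libraries, as given below. The part of exon number in these marker values was not tested. The 10 markers of myelinating oligodendrocytes, the cells that form the white matter sheath once myelination begins, summed to 2 to 10.8 CPM in cKO and 2550 to 4130 CPM in WT. Of these, 6 of 6 tested were called lower. All 6 passed the filter on low counts through WT alone, so lower was the only call open to them. Over all 5918 tested genes edgeR called 0.49% higher and 0.422% lower in cKO. Mog, Mag, Mobp, Cldn11, Myrf and Enpp6 were at 0 counts in every cKO library, and Mobp also in every WT library. Mog was near absent from WT as well, with 0, 0 and 1 counts in WT replicates 1 to 3. The 10 astrocyte markers summed to 2830 to 2950 CPM in cKO and 9770 to 10800 CPM in WT, none was at 0 throughout a group, and 2 of 9 tested were called lower. All 9 had a negative log2 fold change, but single markers varied between cKO libraries. Gfap stood at 53.8, 47 and 1030 CPM in cKO replicates 1 to 3, the last within its WT range of 929 to 1250 CPM. Slc1a2 stood at 594, 562 and 15.6 CPM in these cKO libraries. Xist was counted in every cKO library and in no WT library, and the Y-linked Eif2s3y, Ddx3y, Uty and Kdm5d in every WT library and in no cKO library. Sex, as read from these genes, thus changed together with genotype in every library, and the 2 cannot be told apart here. The part of the differences in cell type markers in the results on m6A enzymes was not tested. Fewer cells of a type and less RNA per cell cannot be told apart in such samples.

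Few reads reached the m6A genes. The 10 genes together had 773 counts over the cKO libraries and 685 over the WT libraries, of which Fto and Rbm15b alone took most. Only Virma, Zc3h13, Rbm15b and Fto passed the filter on low counts and could be tested with all other genes. None of these 4 was called between cKO and WT by edgeR's quasi-likelihood test at a Benjamini-Hochberg adjusted p below 0.05, where 0.912% of the 5918 tested genes were called, 0.49% higher and 0.422% lower in cKO. At an unadjusted p below 0.05, 1 of the 4 passed (Virma), where 12.6% of tested genes did. That pass was lost in 10 of 17 alternatives, with an unadjusted p of 0.0675 to 0.211. DESeq2 called 0 of the 4, where it called 7.34% of 5847 genes, and limma-voom called 0, where it called 0.71% of tested genes. The other 6 genes were pooled within group and compared with exact 95% intervals that cover counting error only, and CPM values were set side by side in a two-sided exact permutation test, whose smallest p is 0.1 with 3 libraries against 3.

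**Figure D1:**
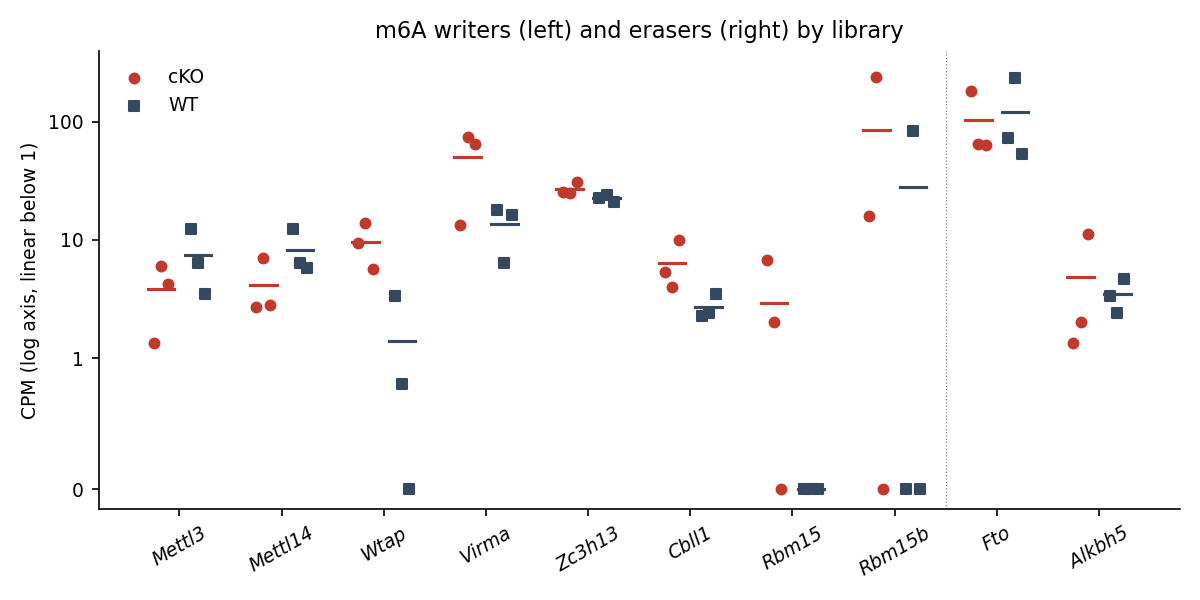
Level of each m6A writer and eraser (x axis) as CPM (y axis, log scale above 1) in each library, with cKO libraries as circles and WT libraries as squares, and the group mean as a bar. Wtap, Zc3h13 and Cbll1 have cKO values that all lie above the WT values on this TMM scale (for Zc3h13 the pooled ratio crosses 1 with upper-quartile scaling), Rbm15b is at 0 in cKO replicate 3 and in WT replicates 1 and 3, and Fto spans 63.7 to 184 CPM in cKO and 53.5 to 237 CPM in WT.

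The targeted gene Mettl14 (chromosome 3, 123368297 to 123386108, minus strand, 11 exons) was still counted in every cKO library, with 2, 7 and 2 counts in cKO replicates 1 to 3 and 11, 8 and 5 in WT replicates 1 to 3. Its levels were 2.69, 7.01 and 2.83 CPM in cKO libraries and 12.4, 6.43 and 5.82 CPM in WT libraries. The groups overlapped, because cKO replicate 2 lay above WT replicates 2 and 3. Pooled over each group, 11 counts in cKO (interval 5.49 to 19.7) stood against 24 in WT (interval 15.4 to 35.7), a depth-adjusted ratio of 0.56 with an interval of 0.248 to 1.19. The permutation test gave an exact p of 0.3. With 1 library left out the ratio ran from 0.344 without cKO replicate 2 to 0.727 without WT replicate 1, and it was 0.301 without both replicate 2 libraries. A difference in Mettl14 was thus not detectable at this depth, where the interval spans a loss to 0.248 of the WT level as well as no loss. The counts are per transcript, so reads from a deleted part and from the rest of Mettl14 were not separated here.

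Mettl3 (chromosome 14, 52294841 to 52305128, minus strand, 11 exons), the catalytic subunit, had 1, 6 and 3 counts in cKO libraries and 11, 8 and 3 in WT libraries. Its levels were 1.34, 6.01 and 4.24 CPM in cKO libraries and 12.4, 6.43 and 3.49 CPM in WT libraries. These groups overlapped too, since WT replicate 3 lay below cKO replicates 2 and 3. Pooled, cKO stood at 0.556 of WT (counting interval 0.235 to 1.22), and the exact permutation p was 0.4. With 1 library left out this ratio ran from 0.375 without cKO replicate 2 to 0.781 without WT replicate 1, and it was 0.345 without both replicate 2 libraries. The exons of Mettl3 share 933 of 5076 annotated bases, 18.4%, with the protein-coding gene Tox4 on the opposite strand, and reads of the pair cannot be told apart where they overlap, as the library kit does not mark strand. These bases are of all annotated exons of Mettl3. The 1 transcript counted has 2020 bases, and how many of them Tox4 shares was not measured. With the filter on low counts left out, edgeR gave a log2 fold change of −0.93 (SE 0.66, adjusted p = 0.66) for Mettl14 and −0.91 (SE 0.75, adjusted p = 0.712) for Mettl3.

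The pair made up a smaller part of the writer counts in every cKO library than in any WT library. A share within a library does not depend on the scaling between libraries, but it falls when the other writers rise. The writers summed to 80.7, 371 and 119 CPM in cKO libraries and 70.8, 131 and 50.1 CPM in WT libraries, with pooled counts of 130 in cKO and 38 in WT for Virma and of 251 in cKO and 105 in WT for Rbm15b. These shares are therefore no measure of the Mettl14 level itself, whose groups overlapped. Mettl14 held 3.33%, 1.89% and 2.38% of all writer counts in cKO replicates 1 to 3, against 17.5%, 4.91% and 11.6% in WT replicates 1 to 3. No cKO library reached the lowest WT library, and the exact two-sided permutation p was 0.1, the smallest this design allows. Pooled, Mettl14 was 11 of 515 writer counts in cKO (2.14%, Clopper-Pearson interval 1.07% to 3.79%) and 24 of 269 in WT (8.92%, interval 5.8% to 13%), a difference of −6.79 percentage points. Without WT replicate 1 this difference was −4.17 points, and without WT replicate 2 it was −13 points.

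Rbm15b, which swings between 0 and 239 counts, weighs heavily on that sum. Without Rbm15b and Rbm15 the Mettl14 share was 4.65%, 5.38% and 2.38% in cKO libraries and 17.5%, 13.8% and 11.6% in WT libraries, a pooled difference of −10.4 points and an exact permutation p of 0.1; this sum was chosen after seeing the data. The share of Mettl3 in the same sum was 2.33%, 4.62% and 3.57% in cKO libraries and 17.5%, 13.8% and 6.98% in WT libraries. A shift of balance between the partners was not detectable. Mettl14 was 11 of the 21 counts of the pair in cKO (52.4%, interval 29.8% to 74.3%) and 24 of 46 in WT (52.2%, interval 36.9% to 67.1%). Set against Zc3h13 alone, the writer with the most even counts, Mettl14 took 9.52%, 21.9% and 8.33% of the sum in cKO libraries and 35.5%, 21.1% and 21.7% in WT libraries, and there cKO replicate 2 lay above WT replicates 2 and 3. That pair of genes was chosen after seeing the values. Virma held 23.3%, 56.9% and 54.8% of the counts of the 6 writers left after Rbm15 and Rbm15b in cKO libraries, and 25.4%, 13.8% and 32.6% in WT libraries, with cKO replicates 2 and 3 above every WT library.

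**Figure D2:**
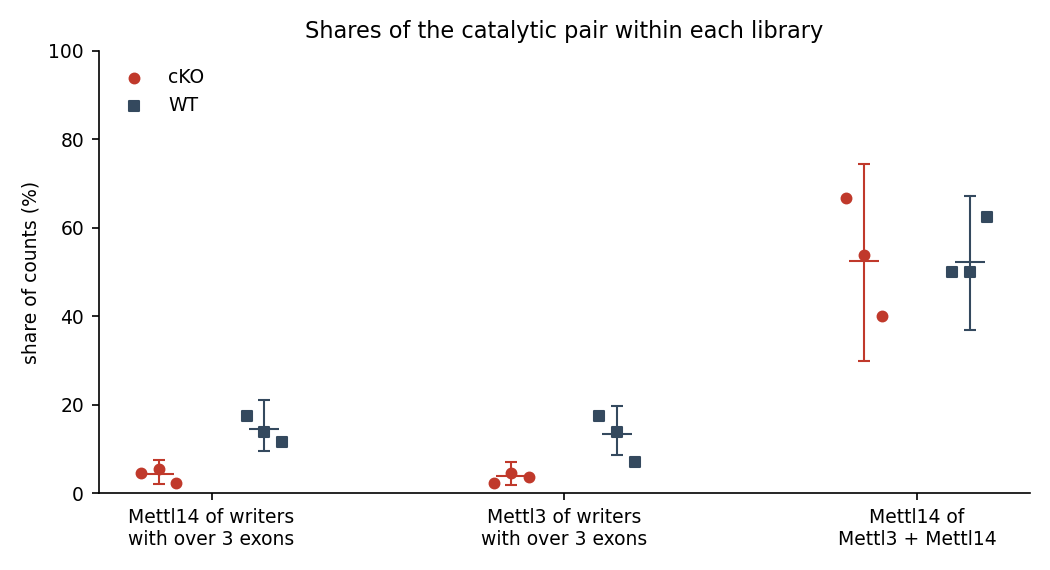
Share of counts (y axis, percent) held by Mettl14 and by Mettl3 among the 6 writers with over 3 exons, and by Mettl14 in the sum of both, in cKO (circles) and WT (squares) libraries; the bar is the pooled share with its 95% Clopper-Pearson interval. The Mettl14 share is 2.38% to 5.38% in cKO libraries and 11.6% to 17.5% in WT libraries, while the pooled share of Mettl14 in the pair is 52.4% in cKO and 52.2% in WT.

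Virma (chromosome 4, 11485958 to 11550684, plus strand, 25 exons), the large scaffold of the regulatory part, ranked next after Fto and Rbm15b by counts in cKO, with 130, while in WT Zc3h13 with 68 counts stood above it at 38. It stood at 13.4, 74.1 and 65.1 CPM in cKO replicates 1 to 3 and at 18, 6.43 and 16.3 CPM in WT replicates 1 to 3. cKO replicates 2 and 3 were above every WT library, while cKO replicate 1 lay between them. The pooled ratio was 4.18 with a counting interval of 2.89 to 6.17, but the spread between the cKO libraries was far larger than counting noise, with a chi-square of 16.1 per degree of freedom where 1 is counting noise alone. With that spread in the test the log2 fold change of 1.91 (SE 0.74, unadjusted p = 0.037) did not pass (edgeR adjusted p = 0.358). The adjusted p ranged from 0.0973 with DESeq2 to 0.647 over the alternatives, and without both replicate 2 libraries the pooled ratio was 2.25.

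Wtap (chromosome 17, 12966796 to 12994169, minus strand, 8 exons) binds the METTL3 and METTL14 pair and brings it to nuclear speckles. It had 7, 14 and 4 counts in cKO libraries and 3, 1 and 0 in WT libraries, or 9.41, 14 and 5.66 CPM in cKO and 3.37, 0.803 and 0 CPM in WT. Every cKO library lay above every WT library, and the exact permutation p was 0.1, the smallest possible. The pooled ratio was 7.64 with a counting interval of 2.64 to 30.2, it was 21.5 without WT replicate 1, which holds 3 of the 4 WT counts, and 4.42 without both replicate 2 libraries. Tested without the filter on low counts, the log2 fold change was 2.71 (SE 0.96, edgeR adjusted p = 0.501).

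Zc3h13 (chromosome 14, 75284373 to 75344426, plus strand, 19 exons), a zinc finger protein that holds the complex in the nucleus, was the most even of the 10 genes. It stood at 25.5, 25 and 31.1 CPM in cKO libraries and 22.5, 24.1 and 21 CPM in WT libraries. The cKO values all lay above the WT values by a small margin, but with upper-quartile scaling the pooled ratio of 1.19 (interval 0.833 to 1.69) became 0.969, so no direction is given. The spread between libraries was below counting noise, with a chi-square per degree of freedom of 0.324 in cKO and 0.112 in WT, and the log2 fold change was 0.27 (SE 0.34, edgeR adjusted p = 0.837).

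Cbll1 (chromosome 12, 31484829 to 31499616, minus strand, 7 exons), a ubiquitin ligase of the complex, had 4, 4 and 7 counts in cKO libraries and 2, 3 and 3 in WT libraries. Its levels were 5.38, 4 and 9.9 CPM in cKO and 2.25, 2.41 and 3.49 CPM in WT. The groups did not overlap, with an exact permutation p of 0.1, yet the counting interval of the pooled ratio of 2.29 ran from 0.912 to 6.24. An antisense gene, Gm29542, shares 704 of its 4007 exonic bases. Of the 10 genes, 3 had groups that did not overlap in CPM (Wtap, Zc3h13 and Cbll1), and for Zc3h13 the pooled ratio crossed 1 with upper-quartile scaling. Of the 4 that passed the filter 1 did, Zc3h13, where 19.8% of all tested genes had groups that did not overlap, 10.4% with cKO above and 9.45% with cKO below WT.

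**Figure D3:**
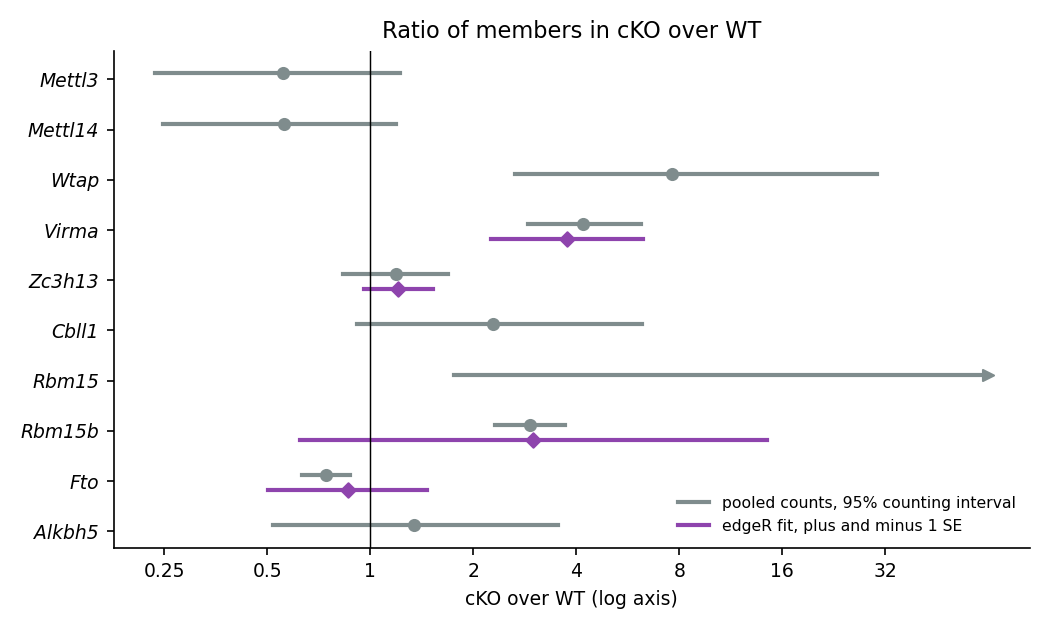
Ratio of cKO over WT (x axis, log scale) for each of the 10 genes, from counts pooled within group with a 95% interval for counting error (grey circles) and from edgeR with 1 SE to each side for the 4 genes that passed the filter (purple diamonds). The counting interval of Virma, Wtap, Rbm15, Rbm15b and Fto leaves out 1, while the edgeR adjusted p of Virma, Rbm15b and Fto is 0.358 or more. With the filter on low counts left out, it is 0.501 for Wtap and 0.524 for Rbm15. The arrow marks Rbm15, which has 0 counts in WT and an interval with no upper end.

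Rbm15 and Rbm15b, which bind RNA and bring the complex to U-rich sites and to Xist, behaved unlike the other writers. Rbm15b (chromosome 9, 106880918 to 106887428, minus strand, 1 exon) had 12, 239 and 0 counts in cKO libraries and 0, 105 and 0 in WT libraries. Its levels were 16.1, 239 and 0 CPM in cKO and 0, 84.3 and 0 CPM in WT. It was thus high in replicate 2 of each group and at 0 in 3 of the 6 libraries, where a count of 0 allows up to 3 counts, or 3.37 to 4.24 CPM. The pooled ratio was 2.92 (counting interval 2.32 to 3.71), and it turned to 0.236 without cKO replicate 2. The log2 fold change of 1.58 (SE 2.27) did not pass (edgeR adjusted p = 0.867).

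Rbm15 (chromosome 3, 107325421 to 107333673, minus strand, 2 exons) had 5, 2 and 0 counts in cKO libraries and 0 in each WT library. Pooled, 7 counts in cKO stood against 0 in WT, and the counting interval of the ratio started at 1.76 with no upper end. The exact permutation p was 0.4, because cKO replicate 3 was at 0 as well. Tested without the filter on low counts, the log2 fold change was 4.47 (SE 1.83, edgeR adjusted p = 0.524).

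Both genes have few exons, and genes with few exons were often at 0 or 1 count in the libraries where Rbm15b was at 0. Among genes with a mean of at least 20 counts over all libraries, 83 have 1 exon. Of these, 25.3%, 6.02% and 45.8% had 0 or 1 count in cKO replicates 1 to 3, against 47%, 8.43% and 37.3% in WT replicates 1 to 3. Of 292 genes with 2 to 3 exons the share was 5.82% to 34.2% in cKO libraries and 13% to 44.9% in WT libraries. Of 4753 genes with more than 3 exons it was 0.757% to 4.21% in cKO and 0.673% to 4.04% in WT. The libraries with the lowest shares, replicate 2 of each group, are those with counts of Rbm15b above 100, and they also have the largest depth and a mean fragment length of 292.7 bases in cKO and 304.3 bases in WT, against 345.5 and 350.5 bases in the other cKO libraries and 332.4 and 338.8 bases in the other WT libraries. The part of exon number in the counts of Rbm15 and Rbm15b was not tested.

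**Figure D4:**
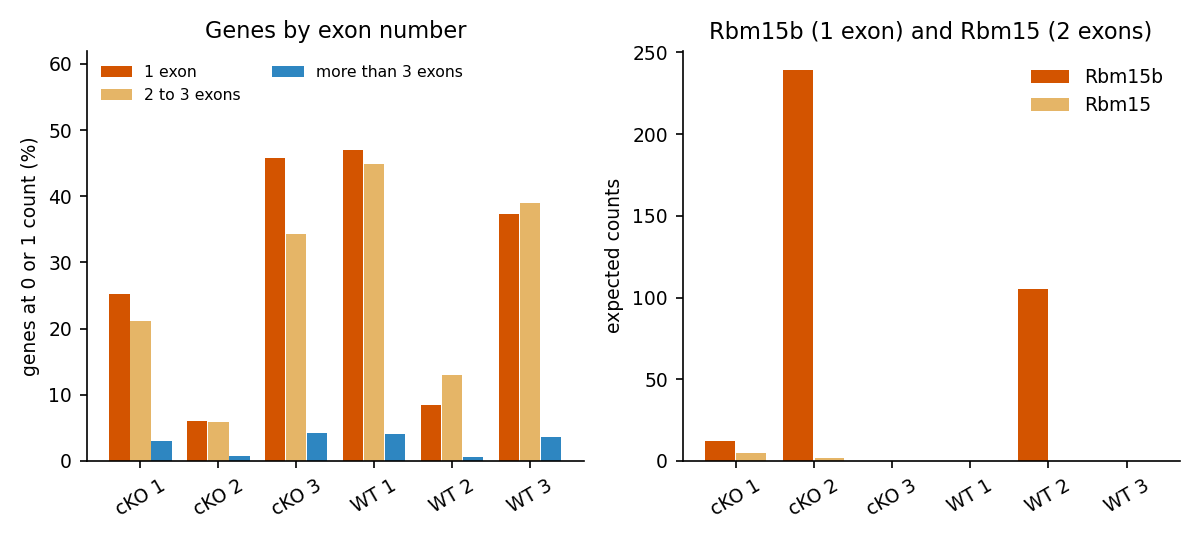
Left, percent of genes at 0 or 1 count (y axis) in each library (x axis) for genes with 1 exon, 2 to 3 exons and more than 3 exons, among genes with a mean of at least 20 counts. Right, expected counts (y axis) of Rbm15b and Rbm15 in the same libraries: cKO replicate 2 and WT replicate 2 have the smallest percentages on the left and the counts of 239 and 105 on the right.

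Fto had the most counts of the 10 genes over all libraries, though in cKO Rbm15b had 251 and Fto 247. Fto (chromosome 8, 91313525 to 91668439, plus strand, 9 exons) had 137, 65 and 45 counts in cKO libraries and 65, 295 and 46 in WT libraries. Its levels were 184, 65.1 and 63.7 CPM in cKO and 73, 237 and 53.5 CPM in WT. One library in each group stood far above the rest, cKO replicate 1 and WT replicate 2, and the other 4 lay between 53.5 and 73 CPM. The log2 fold change was −0.22 (SE 0.77, edgeR adjusted p = 0.963). The pooled ratio of 0.744 had a counting interval of 0.632 to 0.873, but it turned to 1.59 without WT replicate 2 and fell to 0.476 without cKO replicate 1, so that no direction can be given.

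Alkbh5 (chromosome 11, 60536381 to 60558512, plus strand, 4 exons), the nuclear demethylase, had 1, 2 and 8 counts in cKO libraries and 3, 3 and 4 in WT libraries. Its levels were 1.34, 2 and 11.3 CPM in cKO and 3.37, 2.41 and 4.66 CPM in WT, with cKO replicate 3 above and the other cKO libraries below all WT libraries. The pooled ratio was 1.34 (counting interval 0.518 to 3.53) with an exact permutation p of 1, and it was 0.515 without cKO replicate 3. Fto made up 95.7% of eraser counts in cKO (interval 92.5% to 97.9%) and 97.6% in WT (interval 95.6% to 98.8%).

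The spread between libraries was set against counting noise. For Mettl3, Mettl14, Wtap, Zc3h13 and Cbll1 the chi-square per degree of freedom was 0.324 to 1.45 in cKO and 0.112 to 2.46 in WT. For Fto it was 36.8 in cKO and 81.4 in WT, and for Rbm15b 154 in cKO and 73.8 in WT. Alkbh5 had 5.18 in cKO and 0.384 in WT. At a few counts per library counting noise is large, so a value near 1 does not show that libraries varied little.

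Levels were compared between genes as TPM, a unit that sets counts against transcript length and library total. In cKO the order of mean TPM was Fto at 41 ± 23.4, Rbm15b at 37.9 ± 59.6, Virma at 10.2 ± 6.86, Zc3h13 at 6.26 ± 1.84, Wtap at 5.34 ± 1.12, Mettl3 at 3.05 ± 1.82, Cbll1 at 2.51 ± 1.53, Mettl14 at 2.33 ± 1.18, Alkbh5 at 1.27 ± 1.6 and Rbm15 at 1.18 ± 1.4 (SD, n = 3). In WT it was Fto at 52.9 ± 46.7, Rbm15b at 15.2 ± 26.3, Mettl3 at 6.06 ± 3.76, Zc3h13 at 5.3 ± 0.74, Mettl14 at 4.89 ± 2.23, Virma at 2.69 ± 1.17, Wtap at 1.12 ± 1.41, Cbll1 at 0.997 ± 0.184 and Alkbh5 at 0.823 ± 0.205, with Rbm15 at 0 (SD, n = 3). Neighbours in these orders overlapped in range, apart from Mettl3 below Wtap in cKO and Rbm15 below Alkbh5 in WT. Mettl14 stood above 65.7% of the 24411 listed genes by mean TPM in cKO and above 71.8% in WT, and Fto above 89.8% in cKO and 92.1% in WT. These ranks count the genes listed at 0.

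**Figure D5:**
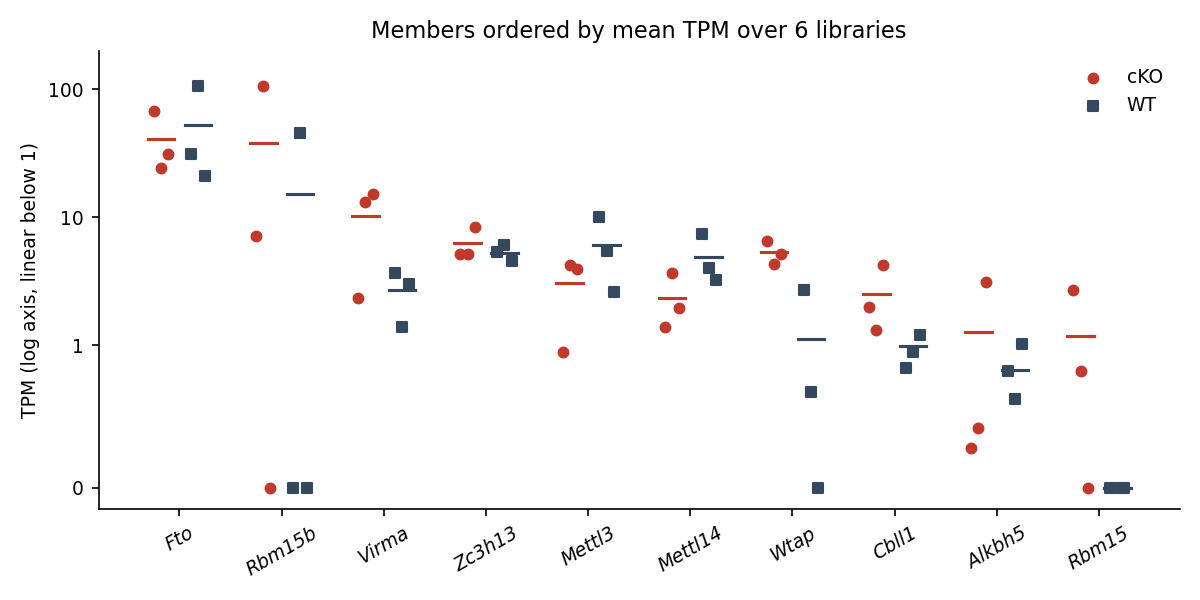
Level of the 10 genes as TPM (y axis, log scale above 1), ordered on the x axis by the mean over all 6 libraries, with cKO libraries as circles, WT libraries as squares and the group mean as a bar. Rbm15b reaches 107 TPM in cKO replicate 2 and Fto reaches 107 TPM in WT replicate 2, while Mettl3 and Mettl14 stay at or below 10.1 TPM.

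Transcripts could be told apart for Wtap and Cbll1 alone, since the other 8 genes are listed with 1 transcript each. RSEM divides the reads by estimate, and no test was made. The short Wtap transcript NM_001113533 (2051 bases) held all Wtap counts in cKO replicates 1 and 3 and in WT replicates 1 and 2. In cKO replicate 2 it held 1.51 of 14 counts, and 12.5 went to the long transcript NM_175394 (4967 bases). NM_175394 was at 0 in the other 5 libraries, and the third, NM_001113532, was at 0 throughout. Pooled, NM_001113533 held 50% of the Wtap counts in cKO and 100% in WT. For Cbll1, the transcript NM_001253847 held 8.21 of 15 counts in cKO (54.7%) and all 8 counts in WT. NM_001253848 was counted in cKO replicate 1 alone, with 4 counts, and NM_134048 in cKO replicates 2 and 3, with 2.79 counts between them. With 0 to 14 counts a library, a difference between the genotypes in the transcripts used was not detectable.

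Other genes of m6A biology were read from lists drawn up by name. In the test over all genes edgeR called 0 of 2 tested RNA methyltransferases and cofactors, 0 of 3 tested members of the AlkB family, 0 of 5 tested genes of the methyl donor cycle, 0 of 8 tested recruitment and nuclear partners and 0 of 11 tested readers. It called 0.912% of all 5918 tested genes. Of these 29 genes, 6 had an unadjusted p below 0.05 with edgeR, where 12.6% of all tested genes did. DESeq2 called 4 of the 29, all of them readers, where it called 7.34% of 5847 genes. The median log2 fold change was 0.42 for the methyltransferases, −0.03 for the AlkB family, −0.13 for the donor cycle, 0.58 for the partners and 0.35 for the readers, beside 0.07 for all tested genes. Hnrnpa2b1, a splicing factor that binds m6A sites and the most counted gene of these lists, had a log2 fold change of −0.05 (SE 0.28). Ahcyl1, a relative of the hydrolase of the donor cycle and the next by counts, had one of −0.25 (SE 0.27).

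The readers called by DESeq2 alone were Ythdf1, Ythdf2, Ythdc1 and Fmr1, all higher in cKO. Ythdf2, which sends m6A-marked mRNA to decay, had 267, 361 and 287 counts in cKO libraries and 0, 64 and 26 in WT libraries (log2 fold change 3.77, SE 1.29, edgeR adjusted p = 0.291). Mat2a, which makes the methyl donor S-adenosylmethionine, stood at 0, 259 and 35.4 CPM in cKO libraries and 0, 276 and 0 CPM in WT libraries, high like Rbm15b in replicate 2 of each group. These readers and Mat2a were picked after their values were seen.

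Likeness of pattern was measured as the root mean square difference of log2(CPM + 1) over the 6 libraries, after centring each gene. Closest to Mettl14 among 5918 tested genes were Fbxo18 at 0.108, Cdc123 at 0.207 and Tomm40l at 0.213. Fbxo18 stood at 64.5, 159 and 65.1 CPM in cKO libraries and at 207, 134 and 116 CPM in WT libraries. Closest to Fto, with the most counts over all libraries, were Ash2l at 0.169, Sptbn1 at 0.205 and Rab8a at 0.253. Ash2l stood at 124, 49 and 43.8 CPM in cKO libraries and at 68.5, 161 and 43.1 CPM in WT libraries. With 6 libraries and so many genes, close matches are to be found for almost any pattern, and no test was made.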

How the data were processed

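The data are mRNA libraries, 3 cKO and 3 WT, grouped and numbered by their titles. For each, the authors deposited transcript-level output of RSEM. The submitters' processing notes name STAR 2.7.10b, RSEM 1.3.3 and mm10; the sources used here do not give the annotation, strand setting or filters. The columns hold expected counts (fragments assigned by estimate, not normalized) and TPM (scaled to length and library total), both computed by the authors, per the file headers.

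Gene values are sums over transcripts, with expected counts rounded to whole numbers. The test was edgeR 4.0.16 (quasi-likelihood, TMM, filterByExpr with a minimum count of 10) in R 4.3.3 over 5918 genes, cKO against WT, with Benjamini-Hochberg adjustment and no covariate. Each SE was derived from the F statistic and so restates the p-value. Pooled ratios have exact conditional binomial intervals, pooled counts exact Poisson intervals and shares Clopper-Pearson intervals, all at 95% and for counting error only. Alternatives were other scalings and filters, unrounded counts, DESeq2 1.42.0, limma 3.58.1 (voom, and on log2(TPM + 1)), the replicate number as a block, libraries left out and, added after seeing the data, genes of more than 3 exons alone and writer shares without Rbm15 and Rbm15b.

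Positions and overlaps come from GENCODE M21 on GRCm38; exon numbers were matched by RefSeq accession for 97.9% of genes. The named genes are all 10 members, the listed pathway genes past the test with the 3 most counted (of which 1 is not reported here), and the 3 closest in pattern to Mettl14 and Fto. Members and lists were chosen with earlier results of these data known. No 2 libraries agreed within counting noise (chi-square of 14.9 or more per degree of freedom).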

Additional observations from a re-analysis of the deposited data

How the results depend on the processing

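No member was called higher or lower in cKO under any alternative run, the libraries left out included; with edgeR 1 of the 4 tested members, Virma, had an unadjusted p below 0.05 in the main test. Over all genes 29 were called higher and 25 lower. These counts moved to 12 and 10 without a filter and with a filter of 1 CPM in 3 libraries, to 250 and 179 with DESeq2, and to 14 higher and 20 lower with genes of more than 3 exons alone, and ranged from 0 to 28 higher and 0 to 14 lower with 1 library left out (leaving out cKO replicates 1, 2 or 3 gave 0, 6 or 28 higher and 0, 4 or 14 lower, and WT replicates 1, 2 or 3 gave 1, 13 or 0 higher and 0, 8 or 0 lower). Without both replicate 2 libraries 0 and 0 were called (740 genes at an unadjusted p below 0.05 with edgeR; no other tool was run there). With the replicate block 1 and 0 were called (763 at an unadjusted p below 0.05), and the log2 fold change of Virma was 1.75 (edgeR adjusted p = 0.472). The labels do not say whether the numbers pair the samples. Deviations from the group means correlated at 0.064, 0.462 and 0.162 across genes for replicates 1 to 3 of the same number. Replicate 2 of cKO correlated most closely with WT replicate 2. Replicate 1 of cKO correlated more closely with WT replicate 3 (0.105), and replicate 3 of cKO with WT replicate 1 (0.2). With 3 libraries a group the deviations are not independent, so these values cannot decide on pairing.

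The log2 fold change of Fto was −0.93 without cKO replicate 1 and turned to 0.04 without cKO replicate 2, 0.07 without cKO replicate 3, 0.72 without WT replicate 2 and 0.98 without both replicate 2 libraries, and that of Rbm15b to −1.8 without cKO replicate 2, against 9.17 without WT replicate 2, which leaves WT at 0; the cause was not tested. The difference in the Mettl14 share was −13 to −4.17 points with 1 library left out and −8.8 as a mean of shares. Every cKO share lay below every WT share, so its sign could not change in these alternatives. It was −10.1 points from TPM and −10.4 without Rbm15 and Rbm15b. The all-gene median log2 fold change was −0.22 with upper-quartile scaling and 0.07 with TMM. The 6 genes below the filter on low counts have no result in the main test.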
